A study of Mus musculus with 9 samples.

Results

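Histone mRNAs were followed in a RIP-seq experiment on phosphorylated UPF1 (p-UPF1), the form of this RNA helicase that acts in nonsense-mediated and other regulated mRNA decay. The genes were taken by name from the deposited table: all those that begin with Hist1h, Hist2h, Hist3h or Hist4h, leaving out names that mark a pseudogene, and 9 variant genes whose mRNAs are polyadenylated. This gave 78 of 54325 gene names, with 6 H1, 20 H2A, 18 H2B, 12 H3 and 13 H4 genes (69 in all, called replication-dependent below) and the variants H1f0, H1fx, H2afx, H2afy, H2afy2, H2afv, H2afz, H3f3a and H3f3b.

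Histones H2A, H2B, H3 and H4 form the protein core around which DNA is wound, and H1 binds the linker DNA between these cores. Replication-dependent histone genes lie in clusters, mostly lack introns, and are expressed in S phase. Their mRNAs end in a conserved stem-loop in place of a poly(A) tail. SLBP binds this stem-loop, and UPF1 is known to take part in the rapid decay of histone mRNAs when DNA synthesis stops. Most variant histones are made throughout the cell cycle from spliced or single-exon genes whose mRNAs carry a poly(A) tail.

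The cells were Neuro-2A (N2A), a mouse neuroblastoma line, and in every group they had been kept for 2 h in 200 nM okadaic acid, which blocks protein phosphatases. RNA was sequenced as short RNase I fragments from 3 groups of 3 libraries each: input RNA taken without immunoprecipitation (IP), RNA recovered with control rabbit IgG (rIgG IP), and RNA recovered with antibody to p-UPF1 (p-UPF1 IP). The labels do not say whether libraries of a group came from separate cultures, so that p-values measure only the spread between these samples, which may be technical. In these bulk libraries, fewer cells with a transcript and less of it per cell cannot be told apart.

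Total estimated counts were 26023968, 25184464 and 29857955 in the input libraries, 5312526, 6032142 and 6246110 in the p-UPF1 IP libraries, and 474491, 205177 and 79010 in the rIgG IP libraries. The 78 genes held 25869, 24459 and 32114 of these counts in input, 4772, 5354 and 4733 in the p-UPF1 IP, and 418, 165 and 56 in the rIgG IP. The rIgG IP libraries were thus the shallow ones, and 3 counts there corresponded to between 6.32 and 38.0 CPM (counts scaled to library size), against at most 0.565 CPM in the p-UPF1 IP and at most 0.119 CPM in input. These floors cover counting error only, because reads copied by PCR do not count molecules. The rIgG IP replicate 3 also stood apart in its TMM normalization factor, which was 1.58, compared with 0.839 and 1.03 in the other rIgG IP libraries.

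The cell type named by the labels was checked against 10 marker genes of sympathetic neuroblastoma. Their summed level in input was 194, 187 and 181 CPM (TMM-scaled), led by Tubb3 at 58.5 CPM, and Phox2a, Hand2 and Gata2 were each present, while Nefl had 0 counts in every library. In the p-UPF1 IP the same 10 markers summed to 160, 168 and 170 CPM, each below every input library, but single markers went both ways: Gata2 rose from 17.2 to 62.5 CPM, Phox2a to 23.7 and Hand2 from 13.3 to 24.5, while Tubb3 fell to 25.6 CPM and Stmn2, at 58.4 CPM in input, fell further. The sum of 5 glial markers was 2.45, 1.78 and 1.71 CPM in input against 12.3, 11.6 and 9.36 CPM in the p-UPF1 IP, most of it Mbp, with Aqp4 at 0 in every library. The sum of 5 fibroblast markers did not pass 1.17 CPM in any library, and that of 5 blood cell markers was at most 0.293 CPM outside the rIgG IP, where 7 counts of Hbb-bs in replicate 1 gave 17.6 CPM. The part of these other markers in the results below was not tested.

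The histone classes parted in the p-UPF1 IP: the summed level of the H1 genes was higher than in input, and the summed levels of the H2A, H2B, H3 and H4 genes and of the variants were lower. H1 genes summed to 147, 145 and 159 CPM in the input libraries, 136, 175 and 64.0 CPM in the rIgG IP, and 502, 459 and 375 CPM in the p-UPF1 IP. All 3 p-UPF1 IP libraries were above the other 6. H4 genes summed to 263, 254 and 310 CPM in input, 181, 180 and 88.0 CPM in the rIgG IP, and 43.6, 40.6 and 52.9 CPM in the p-UPF1 IP, where every library was below the other 6. The ratio of group means between p-UPF1 IP and input was 1.57 for H1 on the log2 scale, -0.85 for H2A, -0.92 for H2B, -2.08 for H3, -2.59 for H4 and -1.73 for the variants. A sum over a class does not depend on which copy a fragment was assigned to, but it leaves out fragments assigned to models outside the class, and for H3 these weighed heavily, as described further below. Scaling by library totals alone raised each of these ratios by about as much as it raised the median of all genes (by 0.41) and turned none of them.

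**Figure D1:**
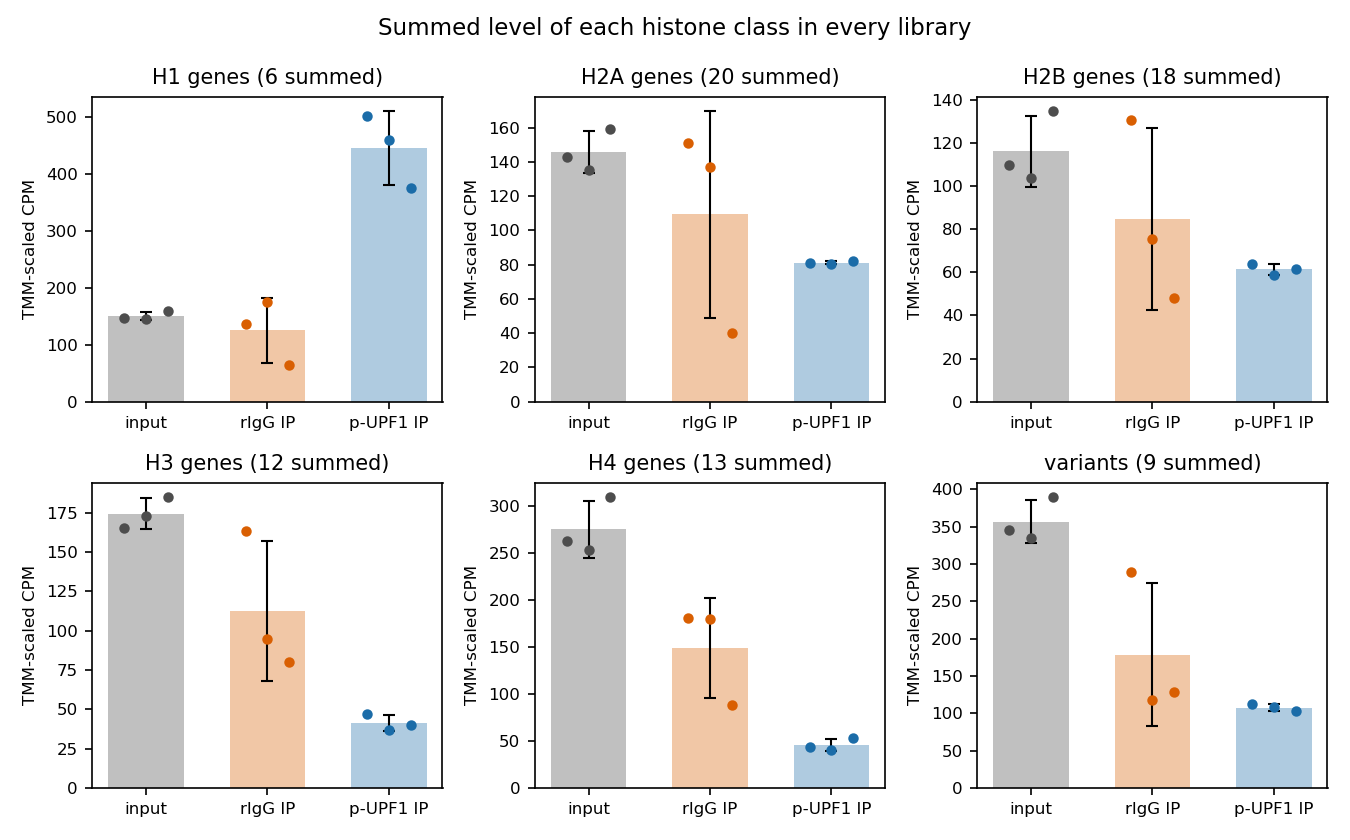
Summed TMM-scaled CPM (y axis, linear from 0) of the genes of each histone class in input, rIgG IP and p-UPF1 IP (x axis). Points are the 3 libraries of a group, bars their mean and error bars the SD; the H1 sum is higher in the p-UPF1 IP (446 ± 64.5 CPM) than in input (150 ± 7.69 CPM), while the H4 sum falls from 276 ± 30.0 to 45.7 ± 6.39 CPM.

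Within the replication-dependent counts, the make-up changed from mostly H4 and H3 to mostly H1. H1 genes held 17.5% ± 0.593 (SD, n = 3) of these counts in input, 21.4% ± 4.48 in the rIgG IP and 65.8% ± 3.86 in the p-UPF1 IP. The share of H4 genes was 31.9% ± 0.700 in input, 26.1% ± 2.06 in the rIgG IP and 6.85% ± 1.55 in the p-UPF1 IP. H3 genes went from 20.3% ± 0.964 in input to 6.12% ± 0.562 in the p-UPF1 IP. The H2A share was 16.9% ± 0.309 in input and 12.1% ± 1.23 in the p-UPF1 IP, and the H2B share 13.4% ± 0.718 and 9.14% ± 0.823.

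Which histone mRNAs were recovered with p-UPF1 more or less than their abundance in the cell would give was asked by comparing p-UPF1 IP with input, gene by gene. A gene was called enriched with a log2 fold change above 1 and an adjusted p under 0.05, and depleted with a log2 fold change below -1 and an adjusted p under 0.05, by edgeR's quasi-likelihood test with Benjamini-Hochberg adjustment over all genes tested. Of the 78 genes, 74 reached the summed count of 10 needed for the test; 5 were enriched and 46 depleted, where 17.3% and 26.5% of all 16919 genes tested were enriched and depleted. The median log2 fold change was -1.52 over the 74 genes and -0.42 over all genes tested. With any fold change, 7 of the 74 were higher and 55 lower, compared with 26.3% and 35.7% of all genes tested. With library totals in place of TMM, 9 were enriched and 40 depleted, and over all genes the calls moved from 2919 enriched and 4480 depleted to 4108 and 3160.

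**Figure D2:**
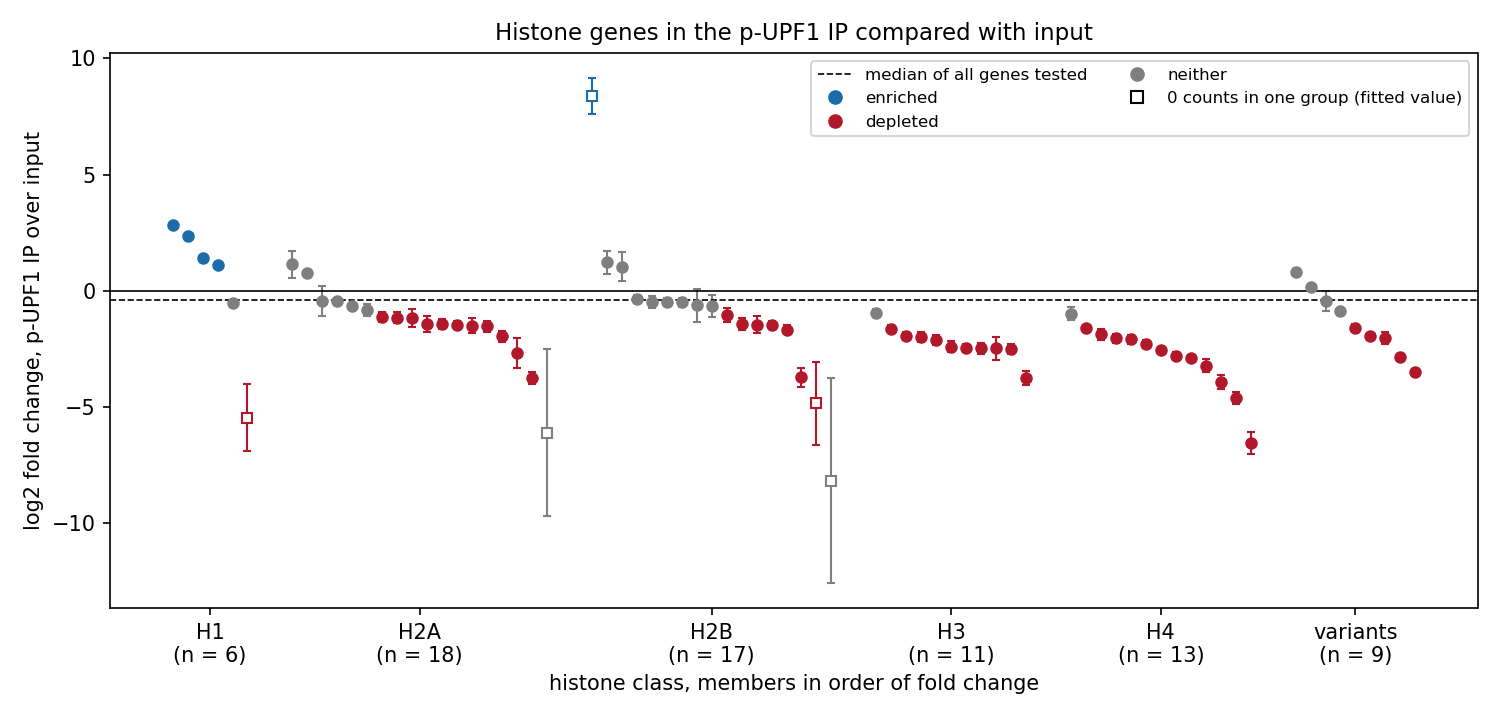
Log2 fold change of each tested histone gene between p-UPF1 IP and input (y axis, with SE from edgeR), by class (x axis) and in order of size. Blue marks enriched, red depleted and gray neither; open squares had 0 counts in one group, and the dashed line is the median of all genes tested (-0.42). Of the H1 genes 4 of 6 are enriched, and 12 of 13 H4 and 10 of 11 H3 genes are depleted.

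Of the H1 genes, which encode the linker histones, 4 of 6 were enriched over input, and the class had a median log2 fold change of 1.26. Hist1h1d (ENSMUSG00000052565.7) had 454, 433 and 588 counts in input against 1054, 1049 and 862 in the p-UPF1 IP, although these last libraries held fewer counts in total. Its level was 21.8 CPM in input and 157 CPM in the p-UPF1 IP, and the log2 fold change was 2.82 ± 0.14 (SE, edgeR adjusted p = 5.9e-08). Hist1h1a (ENSMUSG00000049539.3, chr13:23763666-23764406, plus strand) had 552, 603 and 692 counts in input against 941, 997 and 755 in the p-UPF1 IP, with a log2 fold change of 2.35 ± 0.14 (edgeR adjusted p = 1.6e-07). Hist1h1e followed with 504, 478 and 652 counts in input against 302, 411 and 303 in the p-UPF1 IP (log2 fold change 1.11 ± 0.12). Hist1h1b, named here after its values were seen, had a log2 fold change of 1.40 ± 0.12. For each of the 4 genes, every p-UPF1 IP library was above every input library, as was so for 4801 of all 16919 genes tested.

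The other H1 genes did not follow them. Hist1h1c had the most counts of the class in input (1351, 1154 and 1343) and 204, 303 and 263 in the p-UPF1 IP, with a log2 fold change of -0.53 ± 0.09 (edgeR adjusted p = 0.000402), lower but not past the fold threshold and close to the median of all genes tested. Its share of the H1 counts was 38.1% ± 3.33 (SD, n = 3) in input and 9.16% ± 1.73 in the p-UPF1 IP, while that of Hist1h1d was 14.5% ± 0.797 and 35.2% ± 1.98. Hist1h1t, the testis-specific H1, was nearly silent, with 9, 6 and 10 counts in input and 0 in all 6 IP libraries, which is at least 2.36-fold lower in the p-UPF1 IP, against 3 counts over the group. All 6 H1 genes could be told apart by sequence, since between 65.9% and 100% of the 35-nt windows of their transcripts occurred in no other gene.

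**Figure D3:**
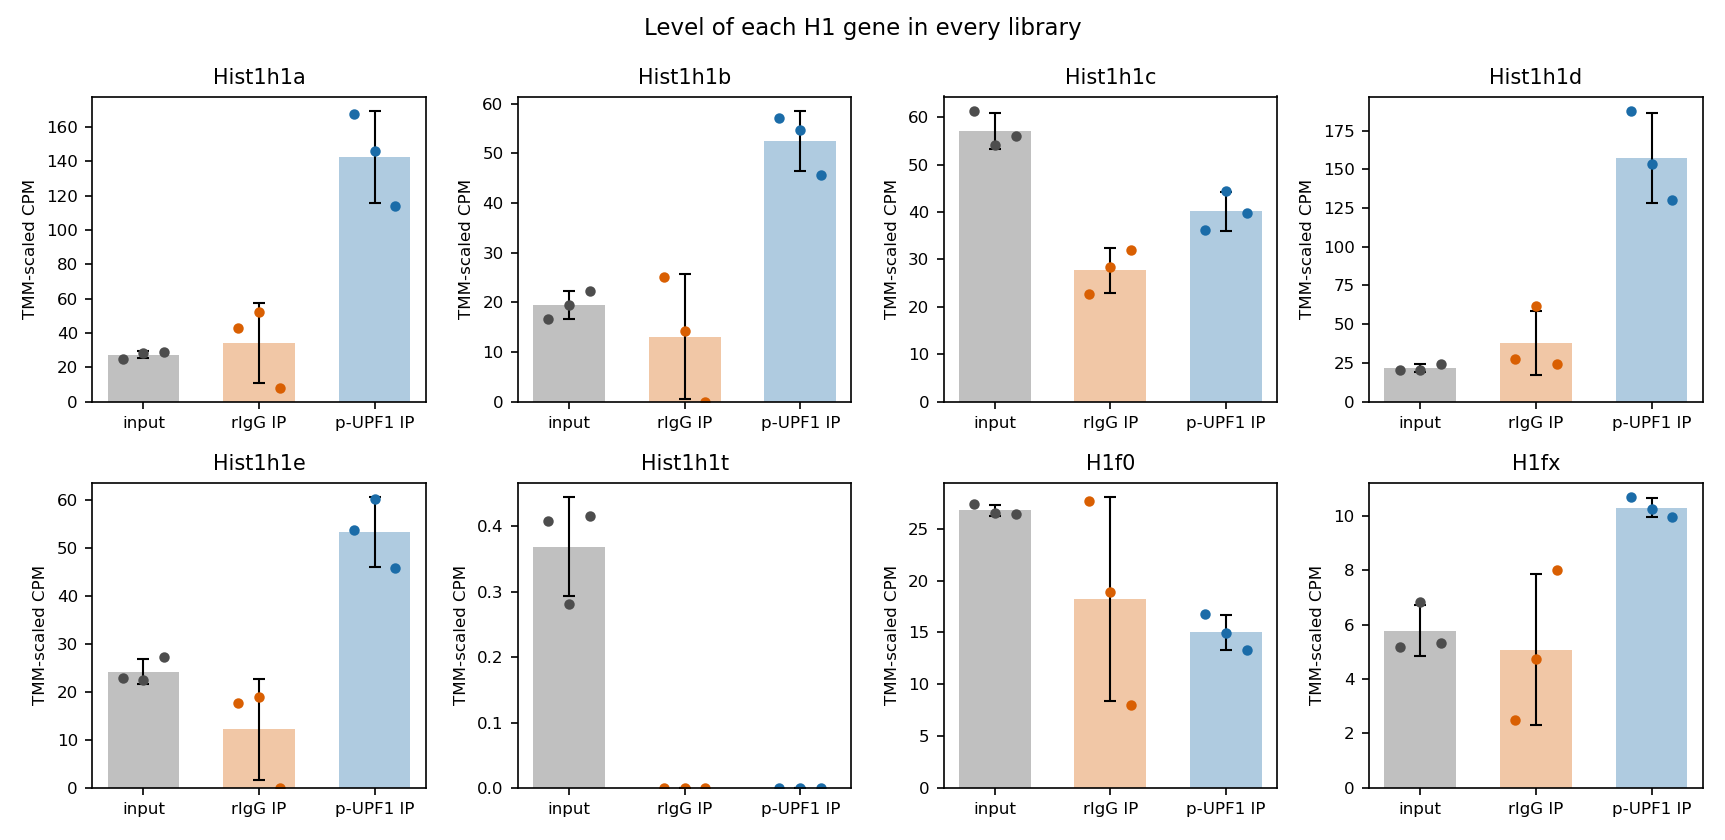
TMM-scaled CPM (y axis, linear from 0, scale differing between panels) of the 6 replication-dependent H1 genes and the variants H1f0 and H1fx in input, rIgG IP and p-UPF1 IP (x axis). Points are the 3 libraries of a group, bars their mean and error bars the SD. Hist1h1a, Hist1h1b, Hist1h1d and Hist1h1e are higher in the p-UPF1 IP than in input, Hist1h1c and H1f0 lower.

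Of the H4 genes, 12 of 13 were depleted in the p-UPF1 IP and the remaining gene, Hist1h4b, was lower by less than the fold threshold (-0.98). Their median log2 fold change was -2.56. No H4 gene was enriched by edgeR, nor at an unadjusted p under 0.05 (0), nor by DESeq2 (0). Hist1h4k (ENSMUSG00000064288.4, chr13:21750194-21750505, minus strand), which had the highest level per length of the 78 genes in input (256 CPM per kb), had 1666, 1532 and 2212 counts there and 61, 57 and 103 in the p-UPF1 IP (log2 fold change -2.81 ± 0.18, edgeR adjusted p = 3.7e-07). Only 16.9% of its windows were its own, so that part of these counts may belong to other H4 copies. Genes whose models hold more sequence of their own were lower as well. Most of the Hist4h4 and Hist2h4 models lies beyond the stem-loop (2445 of 2863 nt and 1257 of 1630 nt). Where along these models the fragments fell cannot be read from the counts, so that fragments from other H4 copies may be among them. Hist4h4, with 2555 of 2829 windows unique, had 666, 608 and 834 counts in input against 22, 29 and 31 in the p-UPF1 IP (-2.88 ± 0.13). Hist2h4 (ENSMUSG00000091405.2, chr3:96261682-96263311, minus strand), with 98.1% unique, had 527, 463 and 725 counts in input against 3, 6 and 11 in the p-UPF1 IP (-4.61 ± 0.27). Hist1h4d and Hist1h4m had log2 fold changes of -1.61 ± 0.13 and -3.23 ± 0.28, and Hist1h4f of -3.93 ± 0.29. Hist1h4n had 104, 134 and 141 counts in input against 0, 0 and 1 in the p-UPF1 IP (-6.55 ± 0.49), with only 13.6% of windows unique.

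Of the 11 H3 genes tested, 10 were depleted, all 11 were lower, and the median log2 fold change was -2.40. Hist1h3e, the H3 gene with the highest input level per length (34.4 CPM per kb), had 586, 603 and 755 counts in input against 30, 43 and 30 in the p-UPF1 IP (-2.44 ± 0.13, edgeR adjusted p = 9.3e-08). Hist1h3f and Hist2h3c2 were at -2.46 ± 0.24 and -3.76 ± 0.30, and Hist1h3c at -0.95 ± 0.15 (-1.17, past the fold threshold, without p-UPF1 IP replicate 3). Of the 12 H3 genes only Hist1h3d had at least 50% of its windows to itself (73.0%), so that single H3 genes are uncertain. Hist2h3c1 had 0 counts in every library, and all of its windows occur in other genes.

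H2A and H2B genes were more mixed. Of 18 H2A genes tested, 11 were depleted and 0 enriched (0 at an unadjusted p under 0.05 and 0 by DESeq2), with a median log2 fold change of -1.29. Hist3h2a, the H2A gene with the most counts in input (670, 567 and 735), had 107, 129 and 120 in the p-UPF1 IP (-0.67 ± 0.09), and Hist1h2ad went from 413, 408 and 592 to 48, 37 and 60 (-1.48 ± 0.18). Hist1h2aj went the other way, from 304, 295 and 353 counts to 145, 163 and 152 (0.75 ± 0.08, higher at edgeR adjusted p = 2.5e-05, and past the fold threshold with library totals, at 1.16), but its transcript is annotated as a pseudogene and only 6.6% of its windows were unique. Hist2h2aa1 was at -3.74 ± 0.26. Of 17 H2B genes tested, 7 were depleted and 1 enriched, with a median of -0.65. Hist1h2bg, the most counted, fell from 1021, 914 and 1401 counts to 84, 80 and 136 (-1.67 ± 0.18), Hist1h2bh was at -1.41 ± 0.26 (no longer depleted with library totals), Hist3h2ba at -1.48 ± 0.16 and Hist1h2bm at -0.49 ± 0.17.

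The enriched H2B gene was Hist2h2bb, with 0 counts in every input library, 0, 0 and 1 in the rIgG IP and 12, 16 and 28 in the p-UPF1 IP, at least 66.0-fold higher than input against 3 counts over the group. This gene lies at chr3:96269752-96270132 on the plus strand (GRCm38), where it overlaps the lincRNA Gm42743 on the same strand and the antisense RNA Gm20628. Gm42743 had 567, 540 and 847 counts in input against 27, 24 and 25 in the p-UPF1 IP, so that the count of Hist2h2bb is uncertain. A pair of near-identical H2B copies, Hist1h2bq and Hist1h2br, traded counts between libraries: Hist1h2bq had 157, 189 and 23 counts in input and Hist1h2br 0, 0 and 174. Their sum was 8.06 ± 0.877 CPM in input and 11.8 ± 6.25 CPM in the p-UPF1 IP (SD, n = 3), a difference within the spread of the latter. Hist1h2bq alone (1.04 ± 0.62 over input) did not pass the test, but without input replicate 2 (1.54) and with the replicate block (1.11) it did.

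When only the 23 H2A, H2B, H3 and H4 genes with at least 50% unique windows were kept, 21 were tested, 16 were depleted, and the median log2 fold change was -1.88. The median over all 59 tested genes of these classes was -1.61, or -1.53 with the 4 genes that had 0 counts in a group set at their bound.

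Among the polyadenylated variants, 5 of 9 were depleted and none was enriched by edgeR (0 at an unadjusted p under 0.05 and 0 by DESeq2). The replacement H3 genes had the highest levels per length of the variants, 99.6 and 66.4 CPM per kb in input: H3f3b had 3410, 3237 and 4105 counts in input against 234, 316 and 254 in the p-UPF1 IP (-1.94 ± 0.09, edgeR adjusted p = 3.6e-08), and H3f3a 1507, 1283 and 1972 in input against 33, 39 and 48 in the p-UPF1 IP (-3.51 ± 0.15). H2afz, which encodes an H2A variant found around gene starts, was at -2.85 ± 0.14, and its relative H2afv at -2.03 ± 0.25. H2afy, a macroH2A gene, was at -1.59 ± 0.15, while H2afy2, the other macroH2A gene, had only 18, 19 and 29 counts in input and did not pass the test (-0.44 ± 0.41). H2afx, whose protein is phosphorylated at DNA breaks, had 396, 342 and 442 counts in input against 126, 126 and 127 in the p-UPF1 IP, and its log2 fold change of 0.16 ± 0.10 did not pass the test.

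The linker variants parted in direction. H1fx was higher in the p-UPF1 IP, with 114, 146 and 128 counts in input against 60, 70 and 66 in the p-UPF1 IP (log2 fold change 0.81 ± 0.14, edgeR adjusted p = 0.000496). It passed the fold threshold only with library totals, where it was 1.21. H1f0 was lower, from 604, 565 and 635 counts to 94, 102 and 88 (-0.87 ± 0.10, edgeR adjusted p = 2.1e-05).

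The transcripts of H2afz changed places between groups. ENSMUST00000041045.13, a coding transcript of 1069 nt, had 1240, 1223 and 1600 counts in input and 0 in all 6 IP libraries. ENSMUST00000174561.7, a coding transcript of 810 nt, had 0, 6 and 0 counts in input, 19, 2 and 1 in the rIgG IP and 46, 35 and 60 in the p-UPF1 IP. Of the windows of the shorter transcript only 4.12% occur in no other transcript of the gene, and of the longer 18.4%, so that the sum over the gene is the value to read. The exchange was present in the rIgG IP as well as in the p-UPF1 IP.

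Whether these differences exceeded what adheres to any antibody was asked by comparing p-UPF1 IP with rIgG IP. Of the 78 genes, 69 were tested; 7 were enriched and 13 depleted, where 17.5% and 5.34% of all 12033 genes tested were enriched and depleted. DESeq2 gave 5 and 17, but it moved all genes too, from 2102 enriched and 643 depleted to 1162 and 905. At any fold change, 7 genes were higher and 14 lower (17.9% and 5.59% of all genes). The median of all genes moved by -0.27 with RLE size factors and by -0.64 with DESeq2 here, and by 0.28 and 1.09 in the control comparison. The same 4 H1 genes were among the enriched. Hist1h1d had 11, 13 and 3 counts in the rIgG IP, and its level there was 37.7 ± 20.7 CPM (SD, n = 3) against 157 ± 28.8 CPM in the p-UPF1 IP; the log2 fold change was 2.31 ± 0.31 (SE, edgeR adjusted p = 3.6e-06). Hist1h1a, with 17, 11 and 1 counts in the rIgG IP, was at 2.09 ± 0.31, Hist1h1e (7, 4 and 0) at 2.06 ± 0.41 and Hist1h1b (10, 3 and 0) at 1.80 ± 0.39. These 4 genes were also called enriched when any of the libraries was left out. Hist1h1c was at 0.86 ± 0.32 (edgeR adjusted p = 0.0538), near the median of all genes tested, 0.89.

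The other enriched genes, Hist1h2ad, Hist1h2bm and Hist1h2bq, had 0 counts in every rIgG IP library. Against 3 counts over the group they came out at least 1.86-fold, 1.46-fold and 2.84-fold higher. Without rIgG IP replicate 2 the number of enriched genes was 4, the H1 genes alone. Hist1h2ad and Hist1h2bq lost their call when any single rIgG IP library was left out, and Hist1h2bm without replicate 1 or 2.

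Depletion against the rIgG IP was seen in 4 H4, 2 H3, 2 H2A and 2 H2B genes and in 3 variants, and the median log2 fold change over all 69 genes was -0.44. This split was not stable: H3 genes numbered 6 without p-UPF1 IP replicate 1 or with no filter and 5 with filterByExpr, where 6 of the 13 were shared, and H4 genes numbered 7 with DESeq2. Hist2h3c2 passed the threshold under 7 alternatives, among them no filter (-2.37), and Hist1h3f under 4 (-1.56 with no filter). Hist1h4k had 20, 15 and 4 counts in the rIgG IP and was at -1.97 ± 0.35 (edgeR adjusted p = 0.00019). Hist4h4 was at -1.90 ± 0.52, Hist2h4 at -3.65 ± 0.71 and Hist1h4n at -7.77 ± 1.01. The value of Hist1h4n rested mostly on rIgG IP replicate 1, with 18, 0 and 1 counts in the rIgG IP. Of the variants, H3f3a was at -2.05 ± 0.50, H2afz at -1.58 ± 0.46 and H2afy2 at -3.10 ± 0.96, while H3f3b (-0.87 ± 0.24) was lower by less than the fold threshold. These depletions rested on few counts: without rIgG IP replicate 1, 5 genes were depleted, of which 3 were among the 13. Without that library, Hist4h4 (-1.55) and Hist2h4 (-3.22) kept their fold but missed the threshold (edgeR adjusted p = 0.214 and 0.0557), H3f3a (-0.30) lost both, and H2afz (0.19) changed direction. For H2afy2, Hist2h2aa1 and Hist1h3a the other rIgG IP libraries held 0 counts, so that without it no direction can be read. Among the calls lost with the replicate block were H2afz (-1.29), H2afy2 (-2.84) and Hist4h4 (-1.82). Their folds stayed past the threshold, but edgeR adjusted p was 0.109, 0.0924 and 0.0643. H3f3b passed the fold threshold without rIgG IP replicate 2 (-1.08) or replicate 3 (-1.06) and with DESeq2 (-1.12), RLE size factors (-1.14) and filterByExpr (-1.22), and Hist1h2bg (-0.92 ± 0.48) was depleted without rIgG IP replicate 2 (-1.51) or p-UPF1 IP replicate 3 (-1.19) and with filterByExpr (-1.28), but was at 0.61 without rIgG IP replicate 1. The H3 genes were Hist1h3a (edgeR adjusted p = 0.0328, with 14, 0 and 0 counts in the rIgG IP) and Hist1h3b (-2.45) and the H2B genes Hist1h2bb (-3.82) and Hist1h2bn (-3.16), all named after their values were seen. Of the H2A genes, Hist2h2aa1 (-4.23 ± 0.72) had 22, 0 and 0 counts in the rIgG IP, its copy Hist2h2aa2 0, 12 and 1. The pair summed to 15.9 ± 3.12 CPM in input, 40.0 ± 27.7 CPM in the rIgG IP and 1.24 ± 0.477 CPM in the p-UPF1 IP.

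In the control comparison, rIgG IP with input, 74 genes were tested; 2 were enriched and 1 depleted, where 0.584% and 0.313% of all 16280 genes tested were enriched and depleted. The enriched genes were named after their values were seen. They were Hist2h2aa2 and Hist1h2bn (2.96 ± 0.56, from 9, 6 and 0 counts in the rIgG IP), and the depleted gene was Hist1h2ad (with 0 counts in the rIgG IP and at least 5.13-fold lower). Hist2h2aa2 had 0 counts in input and came out at least 398-fold higher, but it has no window of its own, and summed with its copy Hist2h2aa1 the log2 ratio was 1.33. The number of calls moved when a library was left out: the enriched genes numbered 1 when any single rIgG IP library was left out, 4 without input replicate 2 and 3 without input replicate 3. The depleted genes numbered 7 without input replicate 2, 2 without input replicate 3, 1 (another gene) without rIgG IP replicate 1, and 0 by edgeR without rIgG IP replicate 2 or 3. Hist1h2bn lost its call without rIgG IP replicate 1 or 2 while its log2 fold change stayed near that of the full fit (2.76 and 2.69). Over all genes, leaving out input replicate 2 raised the enriched from 95 to 180 and the depleted from 51 to 134. No H1 gene was called by edgeR with the filter on summed counts, while with no filter Hist1h1c was depleted (-1.16, edgeR adjusted p = 0.0332). At an unadjusted p under 0.05, 0 H1 genes were enriched and 1 was depleted, and DESeq2 called 1 enriched (Hist1h1d) and 0 depleted. The log2 fold changes were 0.77 ± 0.34 for Hist1h1d, 0.52 ± 0.33 for Hist1h1a, -0.69 ± 0.44 for Hist1h1e and -1.13 ± 0.28 for Hist1h1c. A p that misses the threshold at this depth does not show that levels were equal. All 3 comparisons share groups, so that their values are not independent of each other.

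Several gene models outside the 78 share sequence with histone genes, and their counts moved between groups. Models with at least 10% of their 35-nt windows in replication-dependent genes, on either strand, and at least 10 counts over all libraries, numbered 20; both limits were chosen after seeing the data. The 14 of them on the opposite strand, among them microRNA models within H2A genes and the antisense RNA Gm20628, had 2204, 1981 and 2953 counts in input, 26, 9 and 6 in the rIgG IP, and 4, 8 and 3 in the p-UPF1 IP. Fragments of this length from a gene and its antisense partner can be told apart only by strand, and the sources used here do not say whether strand was used in the counting. The 6 models on the same strand had 871, 727 and 1094 counts in input against 679, 816 and 698 in the p-UPF1 IP. Of the latter, Gm20634 alone had 608, 755 and 650, against 244, 127 and 198 in input. Gm20634 is a processed transcript that overlaps Hist2h2aa1 and Hist2h3c1 on chromosome 3, and 78.2% of its windows are shared with replication-dependent genes.

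Adding these models to the sums changed H3 most. The log2 ratio between p-UPF1 IP and input became -0.67 for H3 in place of -2.08, and against the rIgG IP it became 0.12 in place of -1.45, a reversal. Between p-UPF1 IP and input it became -1.18 for H2A, -1.15 for H2B and -2.62 for H4, and no model with that many counts was assigned to H1. Of the counts added to H2A in input (1062, 1034 and 1337), opposite-strand microRNA models held 945, 918 and 1180, against 0 in the p-UPF1 IP. Those added to H2B in input (610, 580 and 874) were mostly Gm42743 (567, 540 and 847), with 13.1% of its windows shared. How many of these counts came from histone mRNA is not known. The H1 share of the replication-dependent and added counts together was then 15.0% ± 0.629 in input and 56.1% ± 3.36 in the p-UPF1 IP (SD, n = 3). The H3 sum took in a pair of models that moved in opposite ways, the same-strand Gm20634 (8.42 CPM in input, 106 CPM in the p-UPF1 IP) and the opposite-strand Gm20628 (50.2 and 0.0593 CPM), and their separate effects on the ratio were not computed. How far H3 was lower is thus uncertain, as is Hist2h2aa1, whereas the H4 sum moved by less than the spread between libraries. What moved these counts was not tested.

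The stem-loop that the replication-dependent mRNAs end in was searched as the histone 3′ stem-loop pattern, 16 nt long, on the sense strand of the most-counted transcript of each gene. It occurred in 46 of 69 replication-dependent genes, compared with 0.656% of 21664 other protein-coding genes, and in 4 of 6 H1, 11 of 20 H2A, 10 of 18 H2B, 9 of 12 H3 and 12 of 13 H4 genes. Of the variants only H2afx had a match. A missing match says only that the annotated transcript lacks these letters: that of Hist1h4k, without a match, has 312 nt, of which 309 are coding. The sites below show that the sequence was the same in enriched Hist1h1d and in Hist1h1c, which was not enriched, while the H4 sites had another stem. The stem is in capitals and the loop in lower case.
Hist1h1d: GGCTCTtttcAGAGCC
Hist1h1c: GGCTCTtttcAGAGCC
Hist1h2bg: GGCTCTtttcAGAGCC
Hist1h3e: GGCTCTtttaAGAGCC
Hist4h4: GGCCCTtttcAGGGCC
Hist2h4: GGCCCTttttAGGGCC
H2afx: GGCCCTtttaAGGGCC
In GRCm38 the Hist1h1d site is at chr13:23555787-23555802 (plus strand), the Hist1h1c site at chr13:23739512-23739527 (plus) and the Hist1h2bg site at chr13:23571843-23571858 (plus). The Hist1h3e site is at chr13:23561903-23561918 (minus), the Hist4h4 site at chr6:136803998-136804013 (minus), the Hist2h4 site at chr3:96262939-96262954 (minus) and the H2afx site at chr9:44335240-44335255 (plus). The first of these sequences was found in 3 H1, 10 H2A, 7 H2B and 5 H3 genes with 1 exon, and that of Hist4h4 in 7 H4 genes.

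The annotated transcripts of several genes go on beyond the stem-loop, by 4884 nt in Hist1h1d, 1153 nt in Hist1h1e, 840 nt in Hist1h1c, 2445 nt in Hist4h4 and 1257 nt in Hist2h4. Such an extended model was thus found among both enriched and depleted genes. Genes with a match had a median log2 fold change between p-UPF1 IP and input of 0.29 in H1 (4 tested), -1.46 in H2A (10), -1.23 in H2B (10), -2.05 in H3 (8) and -2.42 in H4 (12). The H1 median takes in the nearly silent Hist1h1t, with 0 counts in the p-UPF1 IP, beside Hist1h1d (2.82), Hist1h1e (1.11) and Hist1h1c (-0.53). It is thus no measure of a difference by match. Without a match the medians were 1.88 in H1 (2), -0.64 in H2A (8), -0.35 in H2B (7), -2.48 in H3 (3) and -2.81 in H4 (1). Per length, Hist1h1a had the highest level of the 78 genes in the p-UPF1 IP, 192 CPM per kb against 36.9 CPM per kb in input. The level of Hist1h1d per length was only 21.2 CPM per kb in the p-UPF1 IP and 2.94 CPM per kb in input, with a model of 7425 nt.

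In genomic position the classes were not separate. Of the replication-dependent genes, 56 lie on chromosome 13, 10 on chromosome 3, 2 on chromosome 11 and 1 on chromosome 6, and 65 of the 69 most-counted transcripts have 1 exon. The enriched H1 genes stand in the chromosome 13 cluster. Hist1h1d (chr13:23553262-23560686, plus strand) has Hist1h4f on one side (chr13:23551258-23551648, minus strand) and Hist1h3e on the other (chr13:23561534-23562369, minus strand), both depleted, while Hist1h1e overlaps Hist1h2be (-0.50, lower by less than the fold threshold). The median GC content of transcripts was 53.1% in H1, 64.3% in H2A, 56.8% in H2B, 59.9% in H3 and 56.2% in H4 genes. Across 12719 other protein-coding genes, which are not independent replicates, log2 fold change between p-UPF1 IP and input rose with GC content (Spearman's rho 0.43), and across the 74 tested histone genes rho was 0.03. In each of 6 bins of GC content the median of the H2A, H2B, H3 and H4 genes was below that of the other protein-coding genes, as at 55% to 60%, with -1.48 (13 genes) against 0.60 (2647 genes). H1 genes fell in 3 bins, with medians of 2.82 (1 gene, below 45%), 1.11 (3 genes, 50% to 55%) and 0.43 (2 genes, 55% to 60%), the last below that of the other genes. Of 269 other protein-coding genes that have 1 exon only and were tested, 34 were enriched and 90 depleted (12.6% and 33.5%, beside 17.3% and 26.5% of all genes), with a median of -0.90.

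Of 20 genes whose products process histone mRNA or act in its decay, 5 were enriched and 4 depleted in the p-UPF1 IP compared with input (25% and 20%, where all genes gave 17.3% and 26.5%), and 4 of 19 were enriched compared with the rIgG IP (21.1%, where all genes gave 17.5%), with medians of -0.46 and 0.78. In the rIgG IP compared with input the median was -0.78, and those of the lists below were -0.71 and -0.47. The mRNA of Slbp, the stem-loop binding protein, had 265, 290 and 354 counts in input against 47, 55 and 43 in the p-UPF1 IP (-0.85 ± 0.13, edgeR adjusted p = 0.000254), lower but not past the fold threshold. The mRNA of Upf1 itself had 353, 364 and 394 counts in input against 388, 499 and 479 in the p-UPF1 IP (2.09 ± 0.07, edgeR adjusted p = 3.9e-09), and it was also enriched over the rIgG IP (3.13, edgeR adjusted p = 9.6e-07). Lsm11, a subunit of the U7 snRNP that cleaves histone pre-mRNA, was at 2.86 ± 0.12, and Cpsf1 and Srrt were enriched over both input and rIgG IP. Npat, which activates histone gene transcription, and Eri1, an exonuclease that trims the histone stem-loop, were depleted relative to input (-1.09 ± 0.14 and -1.06 ± 0.12).

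Of 12 histone chaperone genes, 3 were enriched and 4 depleted relative to input (25% and 33.3%, beside 17.3% and 26.5% of all genes), with a median log2 fold change of 0.02. Hira, which deposits the replacement H3, was at 1.81 ± 0.16 and Chaf1a, a subunit of the replication-coupled assembly factor, at 1.46 ± 0.19, while Asf1a was at -3.19 ± 0.31 and Nasp at -1.01 ± 0.14. Of 20 other genes of S phase, 3 were enriched and 5 depleted (15% and 25%), with a median of -0.01. Cdt1 and Mcm7, which license replication origins, were at 1.35 ± 0.08 and 1.22 ± 0.10, and Pcna, the sliding clamp, was at -1.80 ± 0.18. Against the rIgG IP, 3 of the 12 chaperone genes and 4 of the 20 S-phase genes were enriched (25% and 20%, beside 17.5% of all genes).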

How the data were processed

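RIP-seq libraries of N2A cells treated with okadaic acid (3 input, 3 rIgG IP, 3 p-UPF1 IP) were analysed. The authors trimmed reads with fastp, keeping those of at least 35 nt, mapped them with STAR 2.7.0f to GRCm38.p6, and quantified GENCODE M22 transcripts with Salmon 0.13.1. The values they deposited are estimated counts per transcript, whole numbers that were not scaled for library size. Whether strand was used is not given in the sources used here, and fragments shared by near-identical histone copies were divided between them by estimation.

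From these, counts were summed over the 140658 transcripts per gene name, and groups were tested against each other by edgeR 4.0.16 (R 4.3.3; TMM and the quasi-likelihood test) on the 6 libraries concerned, for genes with a summed count of at least 10, with Benjamini-Hochberg adjustment over all of them. SEs are log2 fold changes divided by the root of F. For CPM, TMM was run over all 9 libraries, and CPM per kb was divided by transcript length, weighted by counts. A fold against a group at 0 is a lower bound against 3 counts over the group. Levels of classes were summed with no test. Coordinates, lengths and sequences came from GENCODE M21 (same build, earlier release), to which all 78 genes were matched, and 139921 transcripts in all. Windows of 35 nt were compared with all annotated transcripts.

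Genes were named by rule: all 9 variants, the 4 genes of each replication-dependent class with the highest mean input level, up to 3 enriched and 3 depleted genes per comparison with the largest change and at least 10 counts in every library of the higher group, Slbp and Upf1. Other genes named, and the models that share sequence, were chosen after their values were seen. The members, comparisons and lists (histone mRNA processing and decay, histone chaperones, S-phase genes, markers of neuroblastoma, glia, fibroblasts and blood) were chosen with earlier results of these data known.

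Alternatives were DESeq2 1.42.0, RLE size factors, library totals, filterByExpr, no filter, all 9 libraries, the replicate number as a block, any fold change, glmTreat, transcripts in place of genes, only genes with at least 50% unique windows, and leaving out each library in turn. The test was checked on simulated data.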

Additional observations from a re-analysis of the deposited data

How the results depend on the processing

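Of the single-gene log2 fold changes, 117 in all, 1376 values under alternatives kept direction and side of the threshold, 49 passed it, 29 lost it and 46 changed sign, some of them only in a fit with 0 counts in a group, as named below. The 4 H1 genes enriched over input and over rIgG IP were called under each alternative fit except glmTreat and transcripts, with 3 of 4 each. H4 genes depleted relative to input numbered 12 or 13 and H3 genes 10 or 11 under each alternative fit. With the replicate block 6 histone genes were enriched and 47 depleted relative to input, 6 and 9 relative to rIgG IP (where calls over all genes fell from 2102 and 643 to 1362 and 426), and 2 and 1 between rIgG IP and input. Same-number libraries correlated at most at 0.0546, and the main fit did not treat them as pairs. With 3 libraries per group this cannot show whether they came from the same cultures.

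Relative to input, 9 histone genes were enriched with library totals, and 22 were depleted among genes with at least 50% unique windows, where fewer genes were counted. Relative to rIgG IP, enriched genes numbered 4 with glmTreat, 4 with unique windows and from 4 to 7 when leaving out a library. Depleted genes numbered 1 with transcripts, 6 with unique windows and from 5 to 18 when leaving out a library. Between rIgG IP and input, enriched genes numbered 4 with no filter, 1 with glmTreat, 0 with transcripts, 0 with unique windows and from 1 to 4 when leaving out a library. Depleted genes there numbered 0 with RLE size factors, 4 with filterByExpr, 8 with no filter, 0 with glmTreat, 0 with transcripts, 0 with unique windows and from 0 to 7 when leaving out a library.

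Log2 ratios of class sums between p-UPF1 IP and input, with library totals, were 1.95 for H1, -0.46 for H2A, -0.54 for H2B, -1.70 for H3, -2.21 for H4, -1.35 for variants and -1.25 for H2A, H2B, H3 and H4 together. With models that share windows, they were -1.18 for H2A, -1.15 for H2B, -0.67 for H3 and -1.31 for the latter together, and H3 relative to rIgG IP was 0.12. These alternatives for sums were chosen after seeing the data.

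Signs changed in comparisons with the rIgG IP only. Relative to rIgG IP, Hist1h4d was at -0.25 with DESeq2, -0.181 with RLE size factors and -0.25 with filterByExpr. Leaving out a library gave from -0.83 to 1.51 for Hist1h4d, -0.56 to 0.23 for H1f0, -3.71 to 4.57 for H2afy2, -2.03 to 0.19 for H2afz, -4.84 to 5.29 for Hist2h2aa1, -1.51 to 0.61 for Hist1h2bg, -1.47 to 6.85 for Hist1h2bh, -0.40 to 0.23 for Hist1h3c, -0.68 to 1.07 for Hist1h3e, -3.25 to 5.77 for Hist2h3c2 and -1.37 to 6.53 for Hist1h4m. The upper ends for H2afy2, Hist2h2aa1, Hist1h2bh, Hist2h3c2 and Hist1h4m are fitted values where the rIgG IP libraries kept held 0 counts, and no direction or size can be read from them. H3f3b passed the fold threshold with DESeq2 (-1.12), RLE size factors (-1.14) and filterByExpr (-1.22).

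Between rIgG IP and input, Hist3h2ba was at 0.25 with DESeq2, 0.25 with RLE size factors, 0.18 with library totals, 0.0235 with filterByExpr and 0.0191 with the block. Hist1h2bh was at 0.03 with DESeq2 and 0.036 with RLE size factors, Hist1h1b at 0.13, 0.14 and (library totals) 0.0692, and Hist1h2aj at -0.0683 with the block. Leaving out a library gave from -0.13 to 0.15 for Hist3h2ba, -10.03 to 0.25 for Hist1h2bh, -1.12 to 0.10 for Hist1h1b, -10.58 to 0.69 for Hist1h2aj, -0.84 to 0.0524 for H1fx, -2.54 to 0.13 for H2afx, -6.74 to 3.48 for H2afy2, -1.65 to 0.24 for H2afv, -0.13 to 0.41 for Hist3h2a, -10.75 to 1.38 for Hist2h2aa1, -2.03 to 0.00464 for Hist1h2bg and -0.90 to 2.66 for Hist1h4n. The lower ends for Hist2h2aa1, Hist1h2aj, Hist1h2bh and H2afy2 are again fitted values over 0 counts in the rIgG IP and show no direction. The cause of these changes was not tested. The rIgG IP libraries, with at most 474491 counts, limit both comparisons.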
